A study of Drosophila melanogaster with 6 samples.

Results

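Of 17476 genes whose reads were counted in fly wings, 11 stood far higher in every Poxn library than in any control library. Among them were CG31810, Map205, CG7110, CG16820, CG8858, Spn43Ab, Poxn itself, Gld, CG31176 and CG13248. The genes were selected on these same counts. Each count was divided by the library's total count on genes and multiplied to a total of 1000000 to give CPM, and a gene was taken when its lowest CPM in the 3 Poxn libraries was at least 5 and more than 8 times its highest CPM in the 3 control libraries. Of 7020 genes with a lowest Poxn CPM of at least 5, 16 met this ratio (0.228%), and 5 of these were left out because their symbols begin with Cyp6 or ppk. Since the difference between the genotypes chose the genes, that difference is described below. Where the 11 genes are placed in the comparison of all genes, the calls are descriptions and no test of the group. Values of single libraries are given in the order of replicates 1 to 3.

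The control flies were w1118 Canton-S and the mutant flies were labelled Poxn 70. Both lines had been backcrossed to Canton-S flies carrying w1118, so the mutation in the white eye colour gene is part of the controls' background as well. Wings of flies 3 days after eclosion were cut off by hand, 3 libraries of polyadenylated RNA were made for each genotype, and the labels give 8000 wings from 4000 flies for each library. The paper's methods give the same numbers, but the total stated in its results does not match them. The number of wings in a library is therefore uncertain, and the mutant carries a single allele in 1 stock. The sexes of the flies are not given in the sources used here.

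Poxn (Pox neuro) encodes a transcription factor of the Pax family that directs developing bristles of the fly to become taste bristles, which hold several chemosensory neurons, in place of touch bristles, which hold a single mechanosensory neuron. Flies that lack its function carry bristles of the touch type where taste bristles would stand on the wing margin. The adult wing is otherwise a thin cuticle with veins that hold nerves, glia, tracheae and circulating hemolymph, so its RNA comes from a small number of living cells. The question of the study was which transcripts belong to the taste sensilla, and the 11 genes lie on the opposite side of that comparison. In whole wings, fewer cells of a type and less RNA in each cell cannot be told apart.

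The control libraries held between 10074860 and 14269486 counts on genes and the Poxn libraries between 14021115 and 16182811. The control libraries differed from each other more than the Poxn libraries did, with the 50 most abundant genes taking 37.7% to 62.4% of the counts in the controls and 30.9% to 32.3% in the mutants. Genes with transcripts under 600 nt took 16.6% to 30.6% and 5.68% to 7.03%. The median of all tested genes was higher in Poxn by 1.40 on the log2 scale with CPM on total counts, and by 0.02 with library sizes corrected by TMM, edgeR's factors that set the bulk of genes equal. All 8 wing epithelium markers (nub, vg, ap, sd, rn, en, Dll and ct) had counts, and they summed to 60.5 to 289 CPM in the controls and 487 to 510 CPM in Poxn. Of these, vg overlapped between the genotypes, at 5.80, 7.44 and 17.7 CPM against 13.9, 9.64 and 15.5 CPM. These sums and those of other tissues are CPM on total counts. The sums of gut, oenocyte, flight muscle, trachea, hemocyte and fat body markers overlapped between the genotypes. In Poxn the oenocyte sum was nearly all Cyp4g1, at 270, 115 and 14.8 CPM. Gut markers summed to 4.48 to 20.5 CPM in the controls and to 22.1, 269 and 18.8 CPM in the mutants, male accessory gland markers to 0.298 to 2.31 CPM and to 3.42, 2.60 and 256 CPM, and oenocyte markers without FASN3 to 0.696 to 16.2 CPM and to 270, 115 and 15.0 CPM. Neuron markers without para summed to 21.7 to 100 CPM against 190 to 245 CPM, flight muscle markers to 53.3 to 380 against 323 to 713 CPM, and trachea markers without btl to 132, 4.17 and 1025 CPM in the 3 controls against 900 to 1018 CPM. Glia markers summed to 904 to 1339 against 2250 to 2700 CPM, hemocyte markers to 9.51 to 28.8 against 19.7 to 32.8 CPM and fat body markers to 0.696 to 2.73 against 0.949 to 1.92 CPM. Most of the glia sum was Gs2 in every library. With TMM the log2 ratio of mean CPM was −1.20 for Gs2 and 0.21 to 0.91 for repo, moody and nrv2. The part of these tissues in the levels of the 11 genes was not tested.

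Together, the 11 genes summed to 3.09, 22.7 and 38.3 CPM in the controls, and in the mutants to 467, 619 and 572 CPM. Gld and Spn43Ab supplied between 73.8% and 80.3% of these counts in every library. The ratio of the mean Poxn CPM to the mean control CPM ran from 16.7-fold for CG8858 to 94.7-fold for Map205, with a median of 24.0-fold. Control replicate 1 was the lowest control for 9 of the 11 genes and control replicate 3 the highest for 7. In the mutants the highest library was replicate 2 for 5 genes and replicate 3 for 6, and replicate 1 for none.

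**Figure D1:**
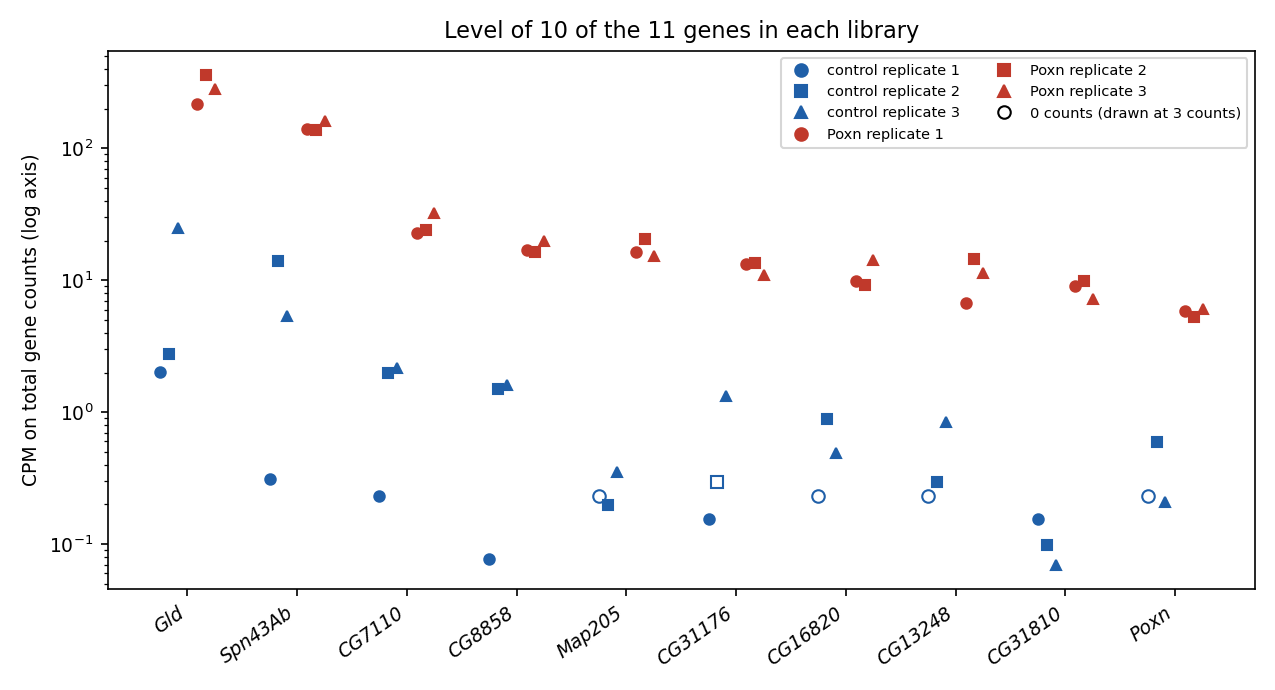
Level of 10 of the 11 genes in each library, as CPM on total gene counts (log axis). Blue symbols are the 3 control libraries and red symbols the 3 Poxn libraries. Open symbols mark a count of 0, drawn at the CPM of 3 counts, a limit chosen here for a count of 0. The red symbols lie above the blue ones for every gene because the genes were chosen that way, Gld and Spn43Ab are the highest in the mutants, and control replicate 1 is usually the lowest.

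Poxn, the mutated gene, was the least abundant of the 11 in CPM in the mutants. The controls held 0, 6 and 3 counts of it, the mutants 92, 86 and 85. The 3 mutant libraries were nearly level with each other, with a coefficient of variation of 6.66%, while 1 control library held no read of the gene. In CPM the means were 0.269 ± 0.302 and 5.73 ± 0.382 (SD, n = 3 each), a 21.3-fold difference. The gene lies on 2R at 15826693 to 15835055 (reverse strand, release 6 assembly), inside the span of tun on the other strand, whose exons it does not overlap. The counts of tun were 13, 129 and 94 in the controls and 135, 117 and 97 in the mutants. Counts per gene do not show which part of the Poxn transcript the reads came from.

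Gld encodes glucose dehydrogenase, a flavoprotein of the GMC oxidoreductase family that is known from cuticle and from the male and female reproductive tract of Drosophila. It was the most abundant of the 11 genes in CPM, with 26, 28 and 356 counts in the controls and 3448, 5807 and 3984 counts in the mutants. Control replicate 3 stood apart from the other two controls, at 24.9 CPM against 2.01 and 2.78 CPM, and set the ratio of 8.74 that Gld reached. The lowest mutant library had 218 CPM and the highest 359 CPM. The mean in Poxn was 287 ± 70.4 CPM (SD, n = 3), 29.0 times the control mean of 9.91 ± 13.0 CPM. Gld lies on 3R at 7252063 to 7265703 (reverse strand).

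Spn43Ab, a member of the serpin family of serine protease inhibitors, was counted 4, 141 and 77 times in the controls and 2226, 2236 and 2249 times in the mutants. The controls spread widely, from 0.309 CPM in replicate 1 to 14 CPM in replicate 2, whereas the mutants lay between 138 and 160 CPM. Per length of exon, which allows levels to be compared between genes, Spn43Ab was the most abundant of the 11 in the mutants, at 110 ± 9.14 FPKM (the CPM divided by the exon length in kilobases, treating each count as 1 fragment), followed by Gld at 99.0 ± 24.3 FPKM (SD, n = 3 each). These 2 levels overlapped between libraries, and the other 9 genes had means of 2.33 to 8.66 FPKM. Spn43Ab lies on 2R at 7151662 to 7153642 (reverse strand) within the span of pk and beside 3 other serpin genes. Spn43Ad, 96 nt away, had 19, 12 and 351 counts in the controls and 677, 666 and 605 in the mutants, and its log2 fold of 1.29 did not pass the test (TMM, adjusted p = 0.204, edgeR). Spn43Aa, 2373 nt away, had too few counts to be tested, with 0, 1 and 6 against 15, 11 and 4. The gene nec, 2835 nt away, encodes the serpin Necrotic, which holds back the Toll pathway. It had 1165, 3975 and 3705 counts against 7565, 7586 and 7315, and did not pass the test with TMM, at a log2 fold of −0.72 (edgeR adjusted p = 0.418), which turned to 0.98 on total counts.

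Map205 encodes the 205-kDa microtubule-associated protein, known as a binding partner of Polo kinase on microtubules. It had 0, 2 and 5 counts in the controls and 257, 330 and 215 in the mutants. Its controls were close to the limit of detection, since 3 counts correspond to 0.210 to 0.298 CPM in these libraries, and its mutants stood between 15.3 and 20.4 CPM. The ratio of its lowest mutant to its highest control was 43.8. The pooled ratio on total counts was 92.8, with a 95% exact interval of 44.8 to 232. The interval covers the counting error of independent molecules only, and copies made by PCR are not independent. Variation between libraries and the choice of scaling are left out of it. With TMM, library sizes corrected as above, the ratio of mean CPM was 43.5, below the interval. The gene lies on 3R at 32055279 to 32068441 (reverse strand).

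CG13248, listed in RefSeq with the synonym CAT-4 of a cationic amino acid transporter, had 0, 3 and 12 counts in the controls and 107, 236 and 158 in the mutants. Its mutant libraries had the largest spread of the 11 genes, from 6.77 CPM in replicate 1 to 14.6 CPM in replicate 2 (coefficient of variation 36.1%). It stood just inside the selection rule with a ratio of 8.05. The gene lies on 3L at 20407103 to 20410566 (reverse strand).

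CG31810 reached the highest ratio of the group, 46.6, from 2, 1 and 1 counts in the controls and 143, 161 and 101 counts in the mutants. The pooled counts, 4 against 405, gave a ratio of 82.0 on total counts with a 95% exact interval of 31.8 to 303 (counting error only). Variation between libraries and the choice of scaling are again left out. With TMM the ratio of mean CPM was 16.5, below the interval. Its neighbour CG31809 went the other way. This gene, 1252 nt away on the same strand, had 183, 314 and 308 counts in the controls and 36, 63 and 21 in the mutants, and fell by 4.98 on the log2 scale with TMM (adjusted p = 0.00704 in the edgeR test) or by 3.12 with total counts. On its other side, 302 nt away, CG13284 had 27, 62 and 74 counts against 75, 32 and 37, lower in Poxn with a log2 fold of −2.21 with TMM (adjusted p = 0.0489 in the edgeR test), or of −0.52 on total counts.

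The annotated coding exons of CG31810 and CG31809 have the same lengths after the first exon, 123, 111, 446 and 114 nt in both, and those of CG13284 are 123, 111, 449 and 114 nt. The sequences were not compared here, and counts of genes that resemble each other are uncertain. Taken as a pair, CG31810 and CG31809 had 185, 315 and 309 counts in the controls and 179, 224 and 122 in the mutants. The pair therefore stood at 14.3, 31.3 and 21.7 CPM in the controls and at 11.3, 13.8 and 8.70 CPM in the mutants, every mutant library below every control library. CG31810 supplied 1.08%, 0.317% and 0.324% of the pair's counts in the controls and 79.9%, 71.9% and 82.8% in the mutants. The high level of CG31810 in Poxn was thus not seen in the sum of the neighbouring genes. CG31810 lies on 2L at 16849018 to 16852368 (reverse strand).

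CG8858 had 1, 15 and 23 counts in the controls and 270, 264 and 278 in the mutants, 1.06 ± 0.853 against 17.7 ± 1.85 CPM (SD, n = 3 each). It lies on 2R at 12192374 to 12198854 (reverse strand) beside cytochrome P450 genes of the Cyp6 group, enzymes that oxidise xenobiotics and other small lipophilic molecules. Cyp6g1, 3943 nt away, had 2, 4 and 29 counts in the controls and 2344, 3652 and 1898 in the mutants, and met the same CPM and ratio limits with a ratio of 66.6. Cyp6g2, 1997 nt away, had no count in the controls and 17, 37 and 20 counts in the mutants. Its mean of 1.60 ± 0.623 CPM in Poxn on total counts was 6.47 times a limit of 0.247 CPM, the level that 3 counts in each control library would give. With TMM, the scale of the test (adjusted p = 0.0363, edgeR), it was 1.55 times that limit, from 0.870 ± 0.322 CPM against 0.560 CPM. Cyp6t3, whose exons overlap those of CG8858 on the opposite strand, had 3, 3 and 20 counts against 7, 11 and 4, and its libraries overlapped between the genotypes. Farther out, CG8860 and asRNA:CR45264, 12472 and 12629 nt away, were lower in Poxn, with log2 folds of −3.88 and −4.76 (TMM, adjusted p = 0.0217 and 0.0228, edgeR).

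CG7110 and CG16820 lie 148802 nt apart on 2L, at 13398991 to 13411047 and at 13246232 to 13250189 (both forward strand). CG7110 had 3, 20 and 31 counts in the controls and 359, 390 and 451 in the mutants, and CG16820 had 0, 9 and 7 counts against 155, 149 and 200. In both genes control replicate 1 was the lowest and Poxn replicate 3 the highest. CG31176, on 3R at 21672303 to 21719660 (reverse strand), was the single gene with its count of 0 in control replicate 2, where the other 4 genes with a 0 had it in control replicate 1. Its counts were 2, 0 and 19 in the controls and 211, 218 and 155 in the mutants.

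The genes nearest to the limits of the rule show how it divided the series. Just inside were CG13248 and CG31176, with ratios of 8.05 and 8.30. Just outside, among genes without an excluded symbol, were cdm at 7.77, CG8765 at 7.76 and rho-6 at 7.57. Below the minimum of 5 CPM, CG13722 reached a ratio of 19.1 with a lowest mutant of 4.02 CPM, CG4213 one of 16.2 with 3.42 CPM, and Sirt7 one of 11.6 with 3.46 CPM. The 5 genes left out by symbol were Cyp6g1, Cyp6a8 at a ratio of 30.1, Cyp6a23 at 16.3, Cyp6a19 at 10.5 and ppk at 8.03. With the exception of CG31810 and Map205, every one of the 11 genes had a ratio between 8.05 and 10.5.

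**Figure D2:**
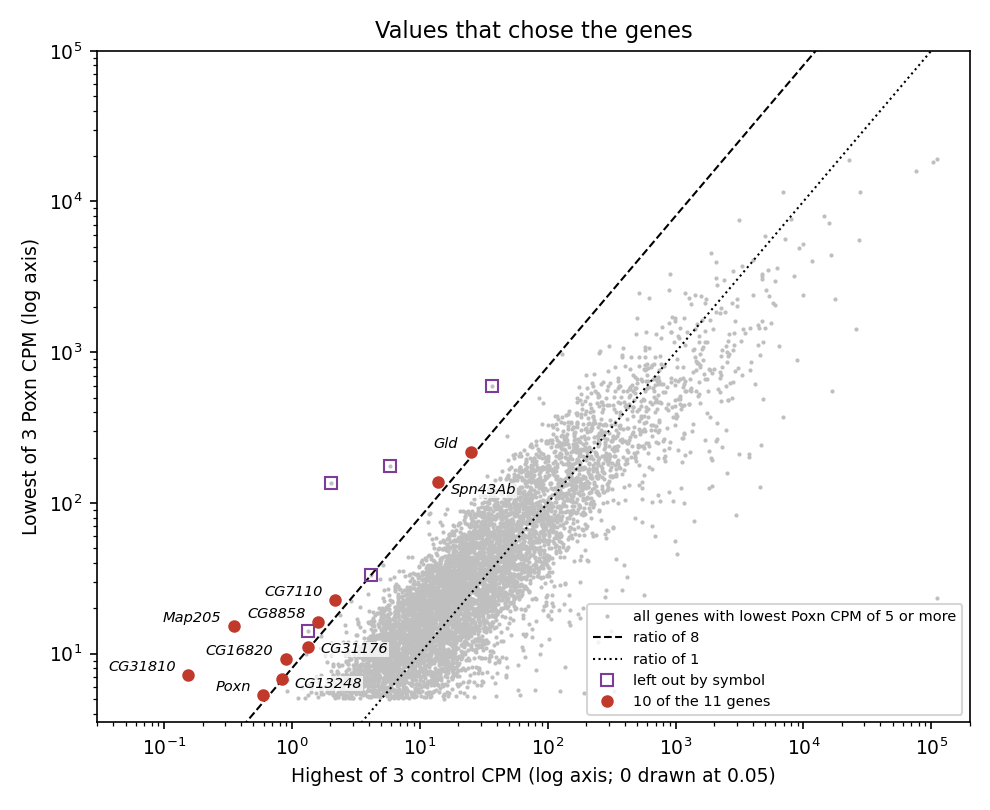
The values that chose the genes: the highest of the 3 control CPM (horizontal, log axis) against the lowest of the 3 Poxn CPM (vertical, log axis) for genes with a lowest Poxn CPM of at least 5. Red points are 10 of the 11 genes, purple squares the 5 genes left out by symbol, the dashed line a ratio of 8 and the dotted line a ratio of 1. Apart from CG31810 (46.6) and Map205 (43.8), the red points lie close to the dashed line.

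The size of the difference depended on how the libraries were scaled. The TMM factors, 0.246, 0.522 and 1.28 for the controls and 1.76, 1.86 and 1.87 for the mutants, raised the control levels against those of the mutants. With TMM, Map205 was the single gene that still had a ratio over 8, at 21.6, and the ratios of the other 10 ran from 2.50 for Poxn to 6.36 for Gld. The median log2 ratio of mean CPM was 4.59 with total counts, 3.12 with TMM and 3.07 with the size factors of DESeq2. All 11 genes had every mutant library above every control library under each of these 3 scalings. Among the 8973 tested genes this held for 57.8% with total counts and for 22.5% with TMM. The control library that came out highest also changed. With total counts it was control replicate 3 for 7 genes and control replicate 2 for 3, and with TMM it was control replicate 2 for 7 and control replicate 3 for 3, with CG31810 highest in control replicate 1 under both.

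**Figure D3:**
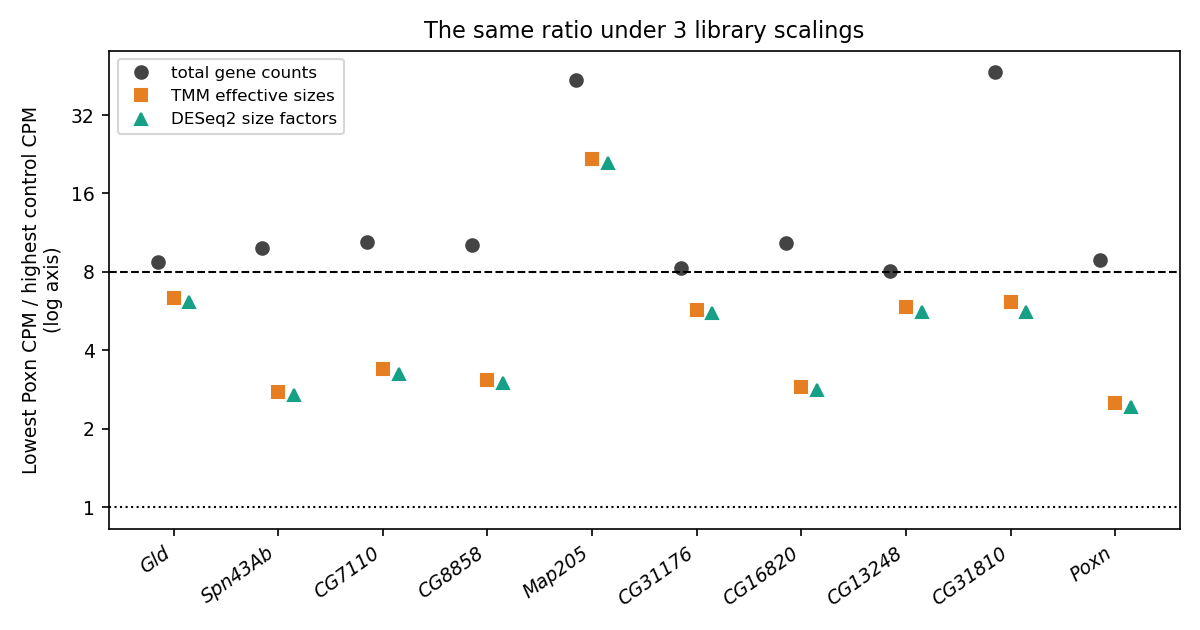
Lowest Poxn CPM divided by highest control CPM for 10 of the 11 genes (log axis) with libraries scaled by total gene counts (circles), TMM effective sizes (squares) or DESeq2 size factors (triangles). The dashed line marks the ratio of 8 used to choose the genes and the dotted line a ratio of 1. Only Map205 stays above 8 under all 3 scalings, at 43.8, 21.6 and 20.9, and no point falls to 1.

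In the comparison of all genes with edgeR's quasi-likelihood test, 241 of 8973 genes (2.69%) were higher in Poxn and 444 (4.95%) were lower at an adjusted p under 0.05. When the adjusted p had to be under 0.01 and the change over 4-fold, the limits of the study's criterion, 5 genes (0.0557%) were higher. The study set these limits on DESeq2's Wald test and not on edgeR. Among the genes enriched in Poxn the paper names ppk, ppk26 and painless (pain). Of the 11 genes, all but Spn43Ab and Poxn were among the 241, and Map205 was the single one among the 5, while DESeq2 placed 10 of the 11 past the same criterion, among 73 of the 10547 genes to which it gave an adjusted p (0.692%). These counts are descriptions, since the genes were chosen by the contrast that the test examines.

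The controls varied more than the mutants, and by how much depended on the scaling. With total counts the coefficient of variation over the 3 controls ran from 39.8% for CG31810 to 147% for CG31176, with a median of 97.0% next to 83.4% for all tested genes. With TMM it was 103% for CG31810 and 94.2% for CG31176, it was highest for Poxn at 142%, and the median was 90.0% next to 52.9% for all tested genes. Over the 3 mutants the median was 16% with total counts and 15.1% with TMM, against 14.9% and 14.6% for all tested genes.

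All 11 genes are annotated as protein coding, as were 97.3% of the tested genes. They lie on 2L (3 genes), 2R (3), 3L (2) and 3R (3). None lies on the X chromosome, which held 16.3% of the tested genes. The longest annotated transcript had a median length of 2856 nt, from 1138 nt for CG31810 to 5896 nt for CG8858, and 8 of the 11 exceeded the median of the tested genes, 2053 nt. The span of the gene on the chromosome had a median of 6481 nt against 2878 nt. In level the genes were modest, with a median of 12.6 CPM in the mutants against 21.9 CPM for tested genes, and 8 of the 11 lay below that value.

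Transcript length moved with the difference between the genotypes across the whole transcriptome. The tested genes were divided by transcript length into 10 classes of nearly equal size. The median log2 ratio of mean CPM with TMM was −1.54 in the class of the shortest transcripts (up to 820 nt), 0.61 in class 6 (2053 to 2474 nt) and −0.28 in the class of the longest. Of the 11 genes, 6 lie in classes 6 to 8, where these medians were 0.53 to 0.61. With the median of its own length class taken off, the log2 ratios ran from 2.16 for CG7110 to 5.72 for Map205, with a median of 3.06. Since the genes were chosen for a high ratio, these values do not bear on the part of transcript length, which was not tested.

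**Figure D4:**
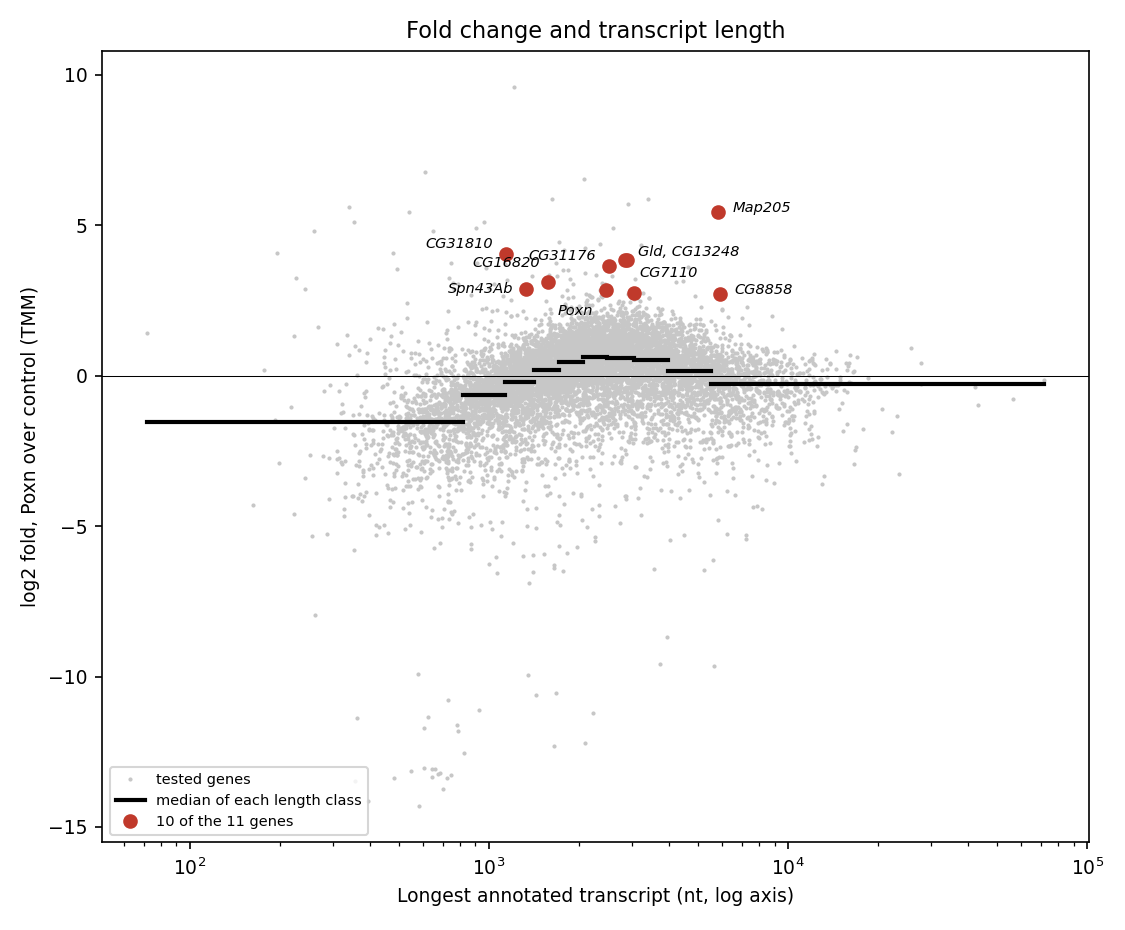
Log2 ratio of mean CPM, Poxn over control, with TMM (vertical) against the longest annotated transcript (horizontal, nt, log axis) for tested genes with a count in both genotypes (grey). Black bars are the medians of 10 length classes and red points 10 of the 11 genes. The medians climb from −1.54 in the shortest class to 0.61 in class 6, and the red points lie 2.16 to 5.72 above the median of their own class.

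Genes of the same families or functions, tested in the same comparison and adjusted over all tested genes, mostly did not pass. Most tested genes did not pass either, with 2.69% called higher and 4.95% lower. Lists this small would hold few called genes at those shares. Of 5 tested GMC oxidoreductase genes other than Gld, 16 serpin genes other than Spn43Ab and 10 genes of microtubule-associated proteins other than Map205, 0 were called in either direction (edgeR, adjusted p under 0.05). At an unadjusted p under 0.05 there were 1, 3 and 0 higher and 1, 0 and 1 lower, and DESeq2 over all 12 lists examined called 22 genes higher and 24 lower where edgeR called 11 and 6. The medians of the 3 lists were −0.69, 0.37 and 0.16 on the log2 scale with TMM, next to 0.01 for all tested genes, and 0.92, 1.77 and 1.62 with total counts, next to 1.39. Of 3 tested cationic amino acid transporter genes other than CG13248, slif, the amino acid transporter slimfast known from nutrient sensing in the larval fat body, was higher in Poxn, with 104, 99 and 530 counts in the controls and 2083, 1964 and 2092 in the mutants (log2 fold 1.45, adjusted p = 0.0417, edgeR).

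Genes of touch and nociceptive neurons were examined because the mutant's bristles are of the touch type. Of 10 tested, pain, ppk and ppk26 rose in Poxn, nompA fell, and 6 did not pass. Among them ppk met the CPM and ratio limits of the rule, with a ratio of 8.03, and was left out by symbol. The channel subunit gene ppk26, which nociceptive neurons of the larval body wall use together with ppk, had 19, 18 and 168 counts in the controls and 1328, 2372 and 1849 in the mutants (log2 fold 3.38, adjusted p = 0.00954, edgeR), and with a ratio of 7.13 it lay just under the limit of the rule. The higher levels of ppk and ppk26 were thus already known from the values that the rule used, and their calls are descriptions. The TRP channel gene pain went from 58, 146 and 367 counts to 1391, 2167 and 1471 (log2 fold 1.43, adjusted p = 0.0414, edgeR). The gene nompA, whose product links the dendrite of a sensory neuron to the cuticle, had 33, 140 and 379 counts against 10, 3 and 5 and fell by 6.44 on the log2 scale (adjusted p = 0.00172, edgeR). Neuron markers, given above, also had a higher sum in the mutants in CPM on total counts. Most of that sum was nSyb, at 111, 177 and 151 CPM in the mutants, and brp overlapped between the genotypes. With TMM the log2 ratio of mean CPM was 1.38 for nSyb and −0.06 for Syt1.

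Among genes of the posterior wing compartment and the hedgehog pathway, 1 of 5 tested rose. This was engrailed (en), the homeodomain factor that marks posterior cells, with 1, 7 and 33 counts in the controls and 170, 187 and 173 in the mutants (log2 fold 2.29, adjusted p = 0.0377, edgeR). In the yellow family, known from pigment formation, 1 of 9 rose, yellow-b, with 5, 12 and 172 counts against 1549, 1502 and 1202 (log2 fold 3.41, adjusted p = 0.0282, edgeR). Among sodium channel auxiliary genes of the TipE family 1 of 5 rose, Teh3, with 11, 4 and 74 counts against 614, 857 and 872 (log2 fold 3.30, adjusted p = 0.0222, edgeR). In each of these genes control replicate 3 was the highest control, as in Gld. Both yellow-b and Teh3 lay just under the limit of the rule, with ratios of 7.11 and 7.49. Their higher level was thus already known from the values that the rule used, and their calls are descriptions. Of 9 tested fatty acid elongase genes and 7 oenocyte hydrocarbon genes 0 were called in either direction, with 2 and 1 higher and 1 and 0 lower at an unadjusted p under 0.05. Of 12 carboxylesterase genes, 1 was called lower, CG10175, and 0 were called higher. At an unadjusted p under 0.05 there were 1 higher, CG4757, and 1 lower. CG4757 had 99, 19 and 1850 counts in the controls and 19626, 40256 and 13633 in the mutants (log2 fold 4.23, adjusted p = 0.0527, edgeR). Every mutant library of CG4757 stood far above every control library, and its ratio also lay just under the limit of the rule.

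The number of list genes called depended on single libraries. Over the 12 lists, edgeR called 11 genes higher with all 6 libraries, 1 without Poxn replicate 1, 0 without Poxn replicate 2, 1 without Poxn replicate 3, 3 without control replicate 1, 29 without control replicate 2 and 23 without control replicate 3. Over the 11 alternatives run for each, the call was kept in all 11 for nompA, in 10 for ppk26, in 8 for ppk and en, in 7 for yellow-b, Teh3, CG10175, mRpL34 and CG44242, in 6 for pain, Zasp52, Ufc1 and CG42524, in 5 for slif, Lis-1 and Gpo1, and in 4 for Rif1. None of these 17 called genes reversed its direction in them.

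Around Poxn itself, 89 genes whose start lies within 500 kb were tested. Of these, 4 were higher in the mutants and 4 lower, shares of the same order as the 2.69% and 4.95% of all tested genes, and their median log2 fold was 0.22. The 4 higher genes were Lis-1, a regulator of the dynein motor, Gpo1, the mitochondrial glycerol-3-phosphate oxidase, Rif1, a factor in replication timing, and Zasp52, a muscle Z-disc protein, with log2 folds of 1.63, 1.38, 3.57 and 1.67. The 4 lower genes were Ufc1, mRpL34, CG42524 and CG44242, at −1.97, −4.43, −2.66 and −3.63. The adjusted p of these 8 genes lay between 0.0153 and 0.0477 (edgeR). Zasp52, the nearest of them, lies 9689 nt from Poxn and had 29, 40 and 165 counts in the controls and 660, 1154 and 520 in the mutants. Flight muscle markers, at 53.3 to 380 CPM in the controls, stood at 374, 713 and 323 CPM in the mutants. The part of muscle in the level of Zasp52 was not tested.

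Within 20 kb of any of the 11 genes lay 107 other genes, of which 57 were tested. Of these 4 were higher in Poxn (CG44085, Cyp6g1, Cyp6g2 and Zasp52) and 5 were lower (CG31809, CG13284, AspRS-m, CG8860 and asRNA:CR45264). Among all tested genes 2.69% were called higher and 4.95% lower. The median log2 fold of the 57 was −0.32. Cyp6g1 met the CPM and ratio limits of the rule, so its call is a description. On total counts the log2 folds of the 5 lower neighbours ran from −3.12 for CG31809 to −0.15 for AspRS-m. All 5 lower neighbours lay beside CG31810 or CG8858. Around Gld, Map205, CG13248, CG7110, CG31176 and Spn43Ab no tested neighbour was called in either direction. CG44085, 10819 nt from CG16820, had 14, 12 and 47 counts in the controls and 256, 554 and 228 in the mutants (log2 fold 2.02, adjusted p = 0.0398, edgeR).

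**Figure D5:**
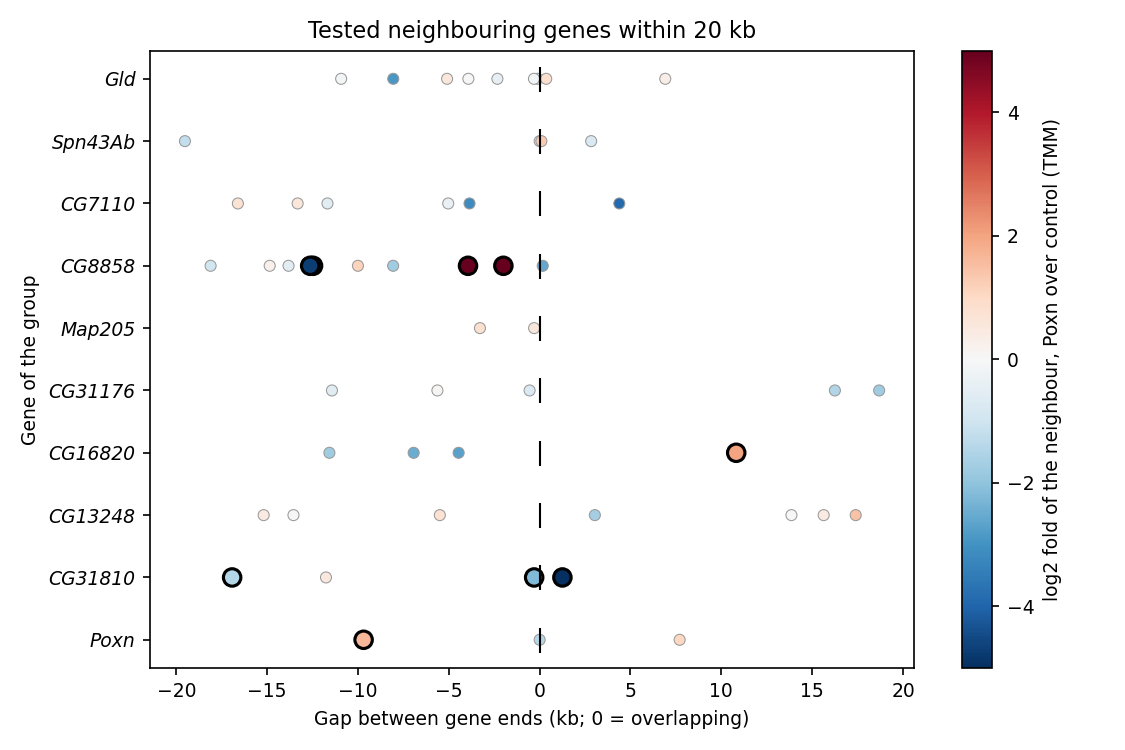
Tested genes within 20 kb of each of 10 of the 11 genes. The horizontal axis is the gap between the ends of the genes in kb (negative values lie toward lower positions on the chromosome), colour is the neighbour's log2 fold, Poxn over control, with TMM, and large points with a black edge are neighbours with an adjusted p under 0.05 (edgeR). The called neighbours gather beside CG8858 (2 higher, 2 lower) and CG31810 (3 lower), and CG16820 and Poxn have 1 each.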

How the data were processed

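Raw counts of reads per gene were deposited by the authors for each of 6 libraries, without normalization. Per the submitters' processing notes and the methods, reads were trimmed with Trim Galore 0.4.0, aligned with STAR 2.4.2a to the FlyBase release 6.09 genome and counted with HTSeq. The strand setting is not given in the sources used here, so counts of overlapping and antisense genes and of close paralogs are uncertain. A table of the authors' own DESeq2 comparison (mean levels, fold changes and p-values) was not used. Lines that name no gene were left out of totals and tests. Reads on no gene made up 47.9% to 58.6% of the control libraries and 49.2% to 49.3% of the Poxn libraries, and ambiguous reads 1.24% to 2.69%.

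The counts were compared with edgeR 4.0.16 (glmQLFTest with Benjamini-Hochberg adjustment and TMM factors, after filterByExpr at its minimum count of 10) in R 4.3.3, on all 6 libraries without covariates. Log2 folds of list and neighbouring genes come from this test and are positive where Poxn was higher. Those of the 11 genes are log2 ratios of mean CPM, computed in Python 3.11.15. Replicates were labelled as separate collections, and with 3 libraries in each genotype the smallest p of an exact permutation test is 0.1. No 2 libraries of a genotype agreed within sampling noise. Symbols and positions came from Ensembl release 115 for 17229 of the 17476 genes. The edgeR fit was tested on simulated data.

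The rule named every gene of the group, of which 1 is not reported here, with the genes nearest to the limits of the rule, the genes left out by symbol, and list genes with an adjusted p under 0.05. The 12 lists were mechanosensory and nociceptive channels, GMC oxidoreductases, the yellow family, sodium channel and TipE genes, elongases, oenocyte hydrocarbon genes, carboxylesterases, microtubule-associated proteins, posterior and hedgehog genes, genes near Poxn, serpins and cationic amino acid transporters. The genes and the lists were chosen with earlier results of these data known. The last 2 lists, the neighbours within 20 kb and the correction for transcript length were added after the 11 genes were known, and the pair CG31810 and CG31809 was summed after its values were seen. The alternatives were other limits of the rule, other scalings, DESeq2 1.42.0, other filters, the replicate number as a block, edgeR's robust fit, leaving out the 50 most abundant genes, and leaving out each library. Sequences were not used here.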

Additional observations from a re-analysis of the deposited data

How the results depend on the processing

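The number of genes that met the rule, 11, became 102 at a ratio of 4, 2 at a ratio of 16, 25 at a minimum of 1 CPM, 6 at a minimum of 10 CPM, 1 with TMM, 1 with DESeq2's size factors and 3 with the 50 most abundant genes left out of the totals. Leaving out 1 library gave 11 to 821, the 821 without control replicate 3. The median log2 fold of the 11 genes, 4.59, was 3.12 with TMM, 3.07 with DESeq2's size factors, 3.06 after the length correction and 4.0 to 4.94 with a library left out. Over all genes, the 241 higher and 444 lower became 5 and 54 in edgeR at the limits of the study's criterion. They became 425 and 95 with total counts and 665 and 1507 with DESeq2. With a library left out they were 3 to 1106 and 39 to 1484. They were 59 and 172 without control replicate 1, 1106 and 1484 without control replicate 2, 726 and 1083 without control replicate 3, and 4 and 39, 3 and 40, and 4 and 50 without Poxn replicates 1, 2 and 3. Among list genes, the 11 higher and 6 lower became 19 and 1 with total counts, 22 and 24 with DESeq2, and 10 lower with no filter. With a library left out they were 0 to 29 and 2 to 19. The cause of these shifts was not tested. With the replicate number as a block, 182 genes were higher and 353 lower, and 7 and 6 list genes. Same-numbered libraries deviated together with r of 0.123, 0.142 and −0.068 across genes, so the numbers were not taken as a pairing. Of the 187 alternatives for the 17 called list genes 115 kept the call, 72 lost it and 0 reversed.

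The group is small and most control counts were below 30, so control levels carry a large counting error. Control libraries differed widely in composition, and scaling sets how large each difference is.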
